A study of Homo sapiens with 2 samples.

Results

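Integrins are the receptors by which cells hold on to the matrix around them, and laminins are a main matrix protein of the basement membrane under every epithelium. The genes described here were all those whose symbol on the array annotation named an integrin alpha chain, an integrin beta chain or a laminin alpha, beta or gamma chain. There were 37 such genes, 26 for integrins and 11 for laminins, with 1418 of the 286871 probesets that carried a single gene symbol. A probeset is a small group of array probes placed in one stretch of a gene, so each gene was read at many places.

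RNA came from MKN45, a human gastric cancer cell line, and from MKN45P, its derivative with high metastatic capacity, 1 array each; the labels name no treatment other than the harvest. Both lines were grown as cultures in the same serum-containing medium, detached with trypsin and EDTA and lysed, so each array reads the average over all cells of a culture; more RNA per cell and more cells with the RNA cannot be told apart. The study set the derivative against its parent. With 1 array per line there was no replicate error, no difference could be tested and no p-value is given: every value compares these 2 arrays alone, whose number limits the precision.

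An integrin is a pair of 1 alpha and 1 beta chain, and the alpha chain largely sets what the pair binds. ITGA1, ITGA2, ITGA10 and ITGA11 pair with ITGB1 as collagen receptors. ITGA3, ITGA6 and ITGA7 make laminin receptors, with ITGB1 or, for ITGA6, with ITGB4, the chain that ties hemidesmosomes to keratin filaments. ITGA5, ITGA8, ITGAV and ITGA2B make receptors for the tripeptide RGD of fibronectin and related ligands; ITGB3, ITGB5, ITGB6 and ITGB8 are partners of ITGAV. A laminin is a cross-shaped trimer of 1 alpha, 1 beta and 1 gamma chain.

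In MKN45P the fibronectin receptor chain ITGA5 and the laminin receptor chain ITGA3 were more than 2-fold higher than in MKN45. The collagen receptor chain ITGA2 and the ITGAV partner ITGB8 were more than 2-fold lower. ITGB4 lay just short of 2-fold lower, and no laminin chain reached 2-fold. For each probeset the MKN45 value was subtracted from that of MKN45P, in log2 units, and the median of these differences is the difference of the gene, so that 1 means 2-fold. The range in brackets after it is the interquartile range over its probesets, which is no error between cultures. The level of a probeset is the mean of both arrays. Genes with 4 or more probesets whose median level reached 1.92, the median of all probesets, are called measured; 27 of the 37 were. Of these, 2 were at least 2-fold higher (7.41%), against 4.58% of the 13130 measured genes of the array, and 2 were at least 2-fold lower (7.41%), against 1.20%; in either direction these were 14.8% and 5.78%. The median difference was -0.11 over the 27 measured chains, -0.06 over all 37, and 0.03 over all measured genes. These counts are by size and the members are few, so nothing particular to the family follows from them.

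**Figure D1:**
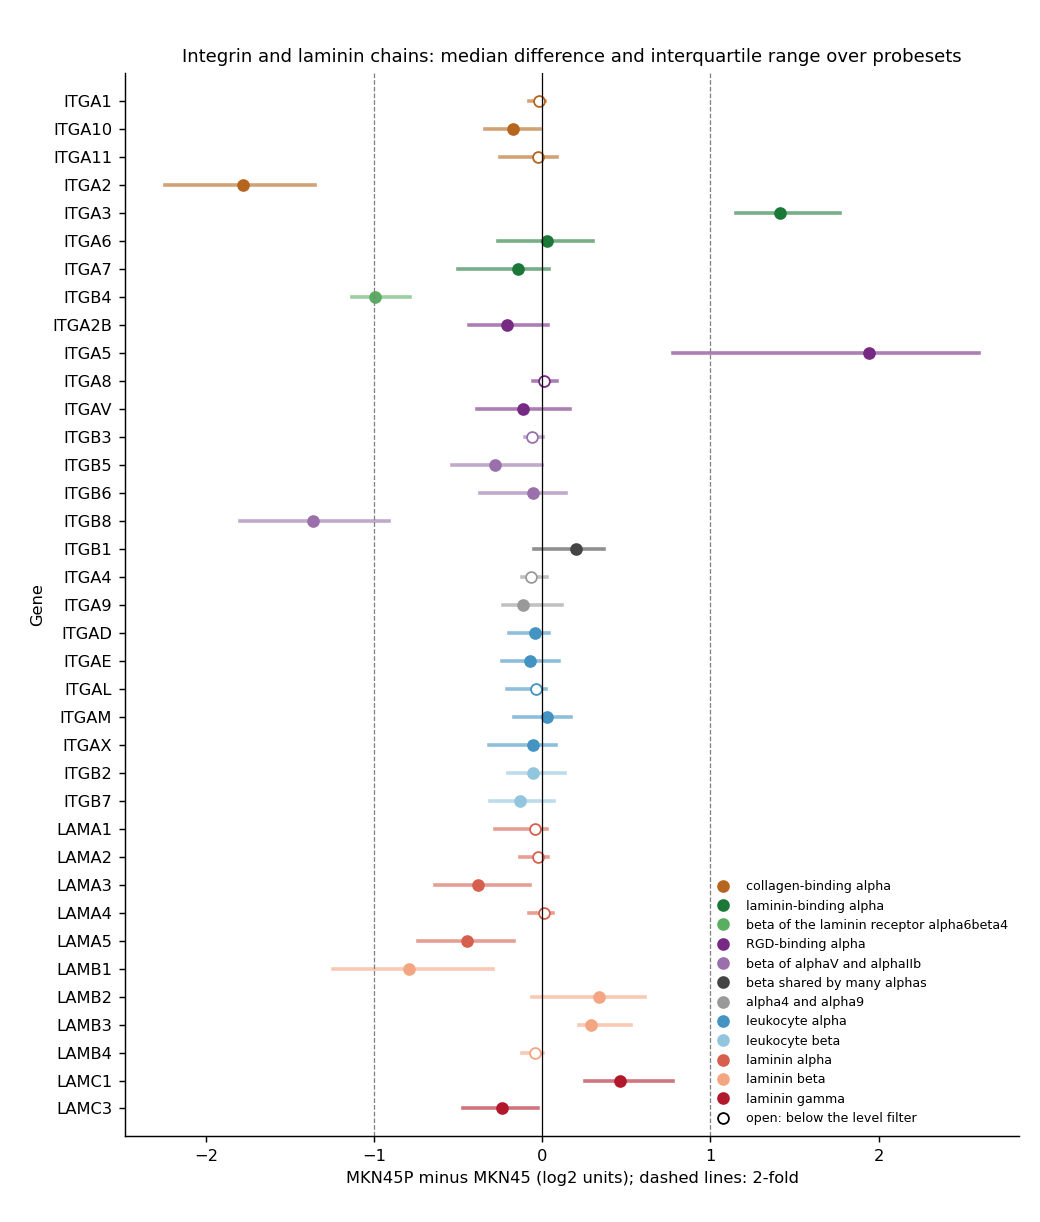
Median difference between the arrays (MKN45P minus MKN45, log2 units, horizontal axis) for each of the 37 genes, with bars for the interquartile range over its probesets, coloured by class; open circles are the 10 genes below the level filter and dashed lines mark 2-fold. ITGA5 and ITGA3 lie to the right of the upper line, ITGA2 and ITGB8 to the left of the lower one, and ITGB4 next to it at -0.996.

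The stretches of DNA just upstream of 3 of the 4 genes past 2-fold are shown because these are the chains the results turn on. Each is the 250 bases before a RefSeq gene start in GRCh38.p14, read 5′ to 3′ on the strand of the gene, and a sequence for 26 of the 37 members was in the table used. Capitals mark the GC box GGGCGG on either strand, the binding motif of Sp1-type factors. ITGA2 (chr5:52989102-52989351, plus strand) held 4, ITGB8 (chr7:20330650-20330899, plus strand) held 2 and ITGA5 (chr12:54419267-54419516, minus strand) held 1.
ITGA5: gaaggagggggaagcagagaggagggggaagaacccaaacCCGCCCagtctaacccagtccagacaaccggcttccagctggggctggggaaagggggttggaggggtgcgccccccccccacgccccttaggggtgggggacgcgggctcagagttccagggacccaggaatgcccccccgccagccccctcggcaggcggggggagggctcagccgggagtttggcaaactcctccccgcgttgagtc
ITGA2: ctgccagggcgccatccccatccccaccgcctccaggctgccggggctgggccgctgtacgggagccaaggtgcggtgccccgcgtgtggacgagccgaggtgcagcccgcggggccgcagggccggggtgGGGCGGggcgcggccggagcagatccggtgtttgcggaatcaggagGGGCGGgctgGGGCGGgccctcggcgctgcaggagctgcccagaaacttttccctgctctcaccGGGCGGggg
ITGB8: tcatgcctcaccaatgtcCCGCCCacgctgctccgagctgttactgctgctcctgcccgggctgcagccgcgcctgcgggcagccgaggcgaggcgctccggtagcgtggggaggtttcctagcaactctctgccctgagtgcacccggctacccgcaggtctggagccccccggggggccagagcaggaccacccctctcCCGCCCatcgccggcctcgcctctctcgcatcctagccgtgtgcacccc

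The upstream DNA held 70.0% G and C for ITGA5, 76.4% for ITGA2 and 71.2% for ITGB8. The share over all genes was not determined, and no such stretch was at hand for ITGA3. A GC box was present in 13 of the 26 members and in 42.3% of 27305 genes with such a stretch. The AP-1 motif TGANTCA was in 1 member, LAMA3 (6.60% of all genes), and the TATA box TATAAA in 1, ITGA6 (11.1%). The core of the interferon-stimulated response element was in none of the 26 and in 3.07% of all genes. Motifs were searched on both strands; a match or its absence describes these letters and says nothing of the factor.

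Among the collagen receptor chains ITGA2 was the one with signal, and it was lower in MKN45P at every one of its 32 probesets. Its probesets ran from 2.50 to 9.78 with a median of 7.49 in MKN45, and from 2.22 to 8.50 with a median of 5.18 in MKN45P. The 2 arrays overlapped in range but each probeset was lower in MKN45P, with differences from -3.44 to -0.27. The gene difference was -1.78 (-2.24 to -1.35), a 3.43-fold lower value, which was the 35th lowest of the 13130 measured genes. At 31 probesets the level reached 2.77, the 75th percentile of all probesets, called signal here; 30 of these were at least 2-fold lower, where 7.83% of the signal probesets of measured genes were. The difference was nearly the same in both parts of the gene, -1.78 over the 16 probesets with the lower numbers and -1.79 over the other 16. ITGA10 had medians of 2.05 and 1.91, near the low end of the scale in both lines, and a difference of -0.18. ITGA1 (-0.02) and ITGA11 (-0.03) were below the level filter.

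Of the laminin receptor chains, ITGA3 was higher in MKN45P, ITGB4 was lower and ITGA6 was close in both lines. ITGA3 had a median of 7.28 in MKN45, with probesets from 1.84 to 9.77, and of 8.65 in MKN45P, from 1.94 to 10.74. It was higher in MKN45P at 36 of 37 probesets. The gene difference was 1.41 (1.15 to 1.77), or 2.66-fold, and 32 of 35 signal probesets were at least 2-fold higher, where 17.4% of the signal probesets of measured genes were. The excess was present along the whole gene, 1.47 over the 19 probesets with the lower numbers and 1.33 over the other 18. Its widest gap was at probeset 3726163, the fourth in number order, which read 3.44 in MKN45 and 7.05 in MKN45P.

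ITGB4, which partners ITGA6 in hemidesmosomes, had high signal in both lines and a narrow spread of differences. Its median was 9.47 in MKN45 and 8.60 in MKN45P, with highest probesets of 11.22 and 10.66. It was lower in MKN45P at 44 of 47 probesets. The difference was -0.996 (-1.13 to -0.78), just inside 2-fold. Of 44 signal probesets 23 were past 2-fold lower, where 7.83% of the signal probesets of measured genes were, and 1 was higher. Under 3 of 8 other settings ITGB4 was past 2-fold lower, over a range from -0.87 to -1.10. Its difference was -1.02 over the 24 probesets with the lower numbers and -0.82 over the other 23.

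ITGA6 had medians of 7.09 in MKN45 and 7.61 in MKN45P, but its probesets were split, 19 higher and 18 lower in MKN45P, and the median of their differences was 0.03 (-0.26 to 0.30). Over other settings it ran from -0.08 to 0.51. At 2 probesets ITGA6 was at least 2-fold higher in MKN45P, and at none was it 2-fold lower. Of these, probeset 2515679, the 28th in number order, had the widest gap: it read 4.75 in MKN45 and 7.31 in MKN45P, a difference of 2.55. The probeset directly before it and the 3 directly after it were below 2.77 in both lines. The alternative C-terminal exons of ITGA6 give its A and B forms, which differ in the cytoplasmic tail; which exon this probeset reads was not determined here. ITGA7, the laminin receptor chain best known from muscle, was near the low end in both lines (2.27 and 2.24) with a difference of -0.15.

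**Figure D2:**
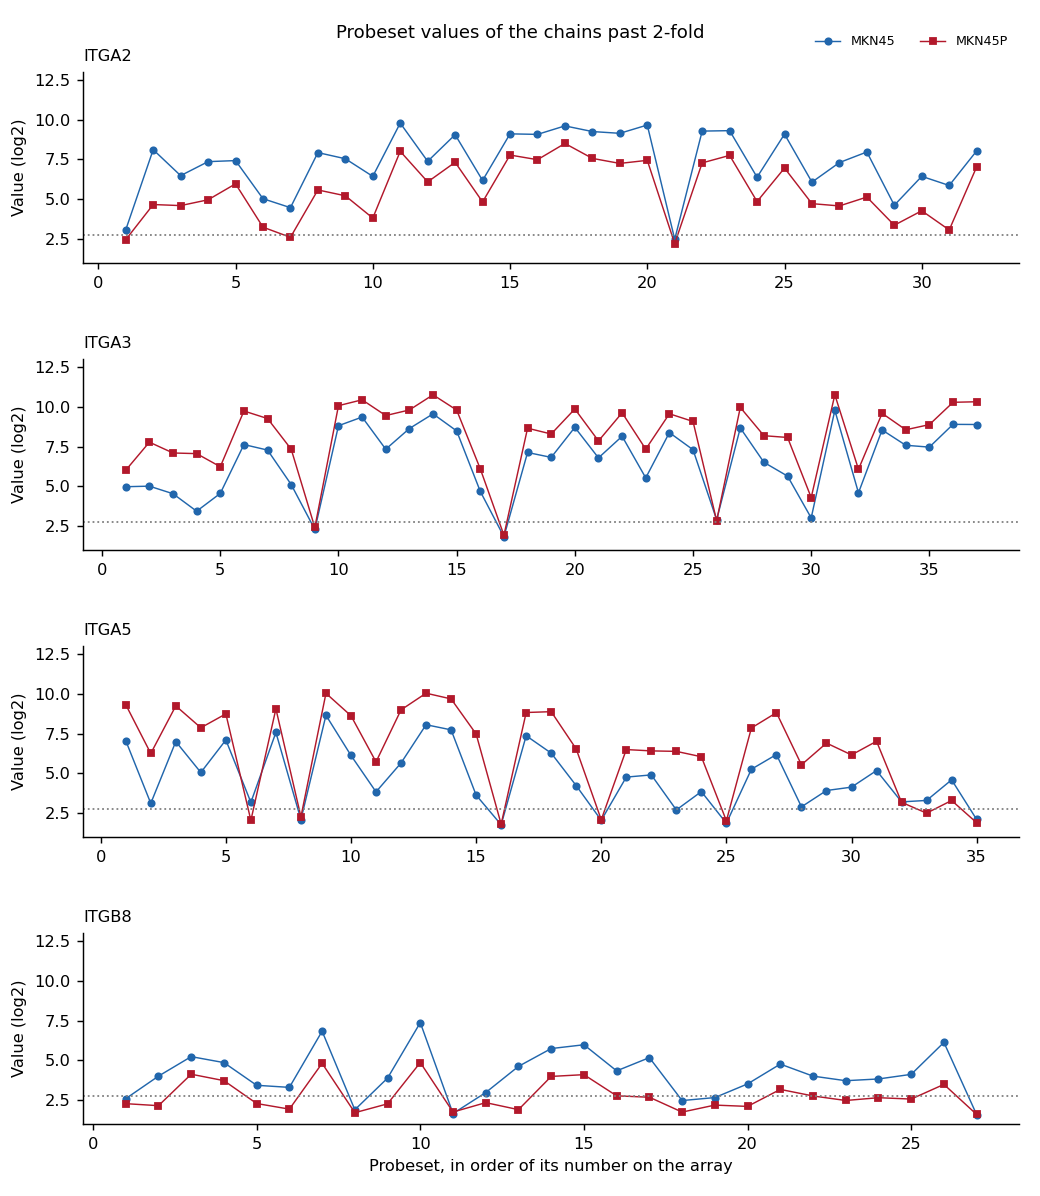
Value of each probeset (log2, vertical axis) in MKN45 (blue circles) and MKN45P (red squares), in order of probeset number, for the 4 chains past 2-fold; the dotted line is 2.77, the 75th percentile of level. The red line lies below the blue at all 32 probesets of ITGA2 and above it at 36 of 37 in ITGA3, while in ITGA5 the last 4 probesets are at or below the MKN45 value.

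Among the RGD-binding alpha chains ITGA5 was far higher in MKN45P and ITGAV was not. ITGA5 had a median of 4.60 in MKN45, with probesets from 1.78 to 8.64, and of 6.53 in MKN45P, from 1.82 to 10.03. The gene difference was 1.94 (0.78 to 2.59), or 3.84-fold, the 110th highest of the measured genes; ITGA3 was the 255th. ITGA5 was higher at 30 of 35 probesets. Of its 29 signal probesets 26 were at least 2-fold higher, where 17.4% of the signal probesets of measured genes were. Over signal probesets alone the difference was 2.19.

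The probesets of ITGA5 did not all differ alike. The 4 with the highest numbers had differences of -0.03, -0.80, -1.29 and -0.21, of which 3456781 read 4.60 in MKN45 and 3.30 in MKN45P. Directly before them, probesets 3456770 and 3456772 had 2.02 and 1.84. Probeset numbers rise with chromosome position between genes of one strand (Spearman rho at least 0.907, median 0.999, over 41 chromosome strands, a description). If they also do so within a gene, the last numbers of ITGA5, on the minus strand, lie on the side of its start; the order within genes was not checked.

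ITGAV, an alpha chain that joins several different beta chains, had medians of 4.77 and 4.55 and a difference of -0.11 (-0.39 to 0.16), with 12 probesets higher and 19 lower. Its beta chains differed among themselves. ITGB8, whose pair with ITGAV binds the latent form of TGF-beta, had a median of 4.02 in MKN45, with probesets from 1.60 to 7.37, and of 2.49 in MKN45P, from 1.61 to 4.87. It was lower at 25 of 27 probesets, and at 20 of the 27 it was at least 2-fold lower. These included all 19 of its signal probesets, where 7.83% of the signal probesets of measured genes were. Signal is set by the mean of both arrays, so some of the 19 passed only through the higher MKN45 value. The difference was -1.36 (-1.80 to -0.91), or 2.57-fold, the 76th lowest of the measured genes. In MKN45P 10 of its probesets reached 2.77, against 21 in MKN45, so much of the MKN45P reading is close to the floor of the scale, where differences are compressed.

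The other ITGAV partners were within 2-fold. ITGB6, the epithelial partner that also binds latent TGF-beta, had medians of 3.99 and 3.72 and a difference of -0.06 (-0.37 to 0.14). ITGB5, a vitronectin receptor chain, was lower in MKN45P at 16 of 21 probesets with a difference of -0.28; the difference between its median levels, 6.47 and 6.79, was 0.32, of the opposite sign. ITGB3 (-0.06) was below the level filter, as was ITGA8 (0.01). ITGA2B, the platelet chain, was near the low end (2.23 and 2.11) and differed by -0.21.

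ITGB1, the common partner of ITGA2, ITGA3 and ITGA5, had close values in both lines. Its medians were 7.78 in MKN45 and 7.75 in MKN45P, and the difference over 19 probesets was 0.20 (-0.05 to 0.37), with 13 higher and 6 lower; between the median levels it was -0.03. The alpha chains past 2-fold in either direction stood beside a beta chain that differed by far less. A pseudogene of ITGB1 exists, and its RNA could bind the same probes.

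**Figure D3:**
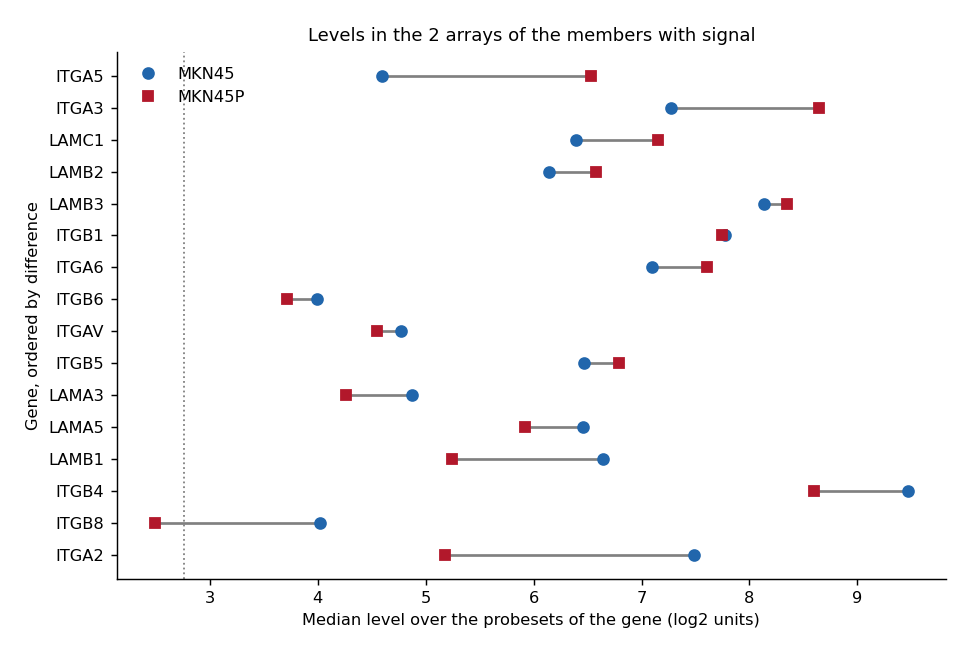
Median level over the probesets of a gene (log2 units, horizontal axis) in MKN45 (blue circles) and MKN45P (red squares) for the 16 chains with a level of at least 2.77 (dotted line), ordered by the median difference of probesets. The longest gaps are those of ITGA2 (7.49 and 5.18) and ITGA5 (4.60 and 6.53), and ITGB1 is nearly the same in both arrays. Levels of different genes come from different probes and are not comparable with each other.

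Laminin chains differed by less than 2-fold, and the direction depended on the chain. Of 7 measured laminin genes 3 were higher and 4 lower in MKN45P, from -0.79 to 0.46. Both measured alpha chains were lower. LAMA5, the broadly expressed epithelial alpha chain, had medians of 6.46 and 5.92, was lower at 82 of 92 probesets and differed by -0.45 (-0.74 to -0.17). LAMA3, the alpha chain of the laminin that anchors hemidesmosomes, had medians of 4.87 and 4.26, was lower at 76 of 95 probesets and differed by -0.38 (-0.64 to -0.07); from the median levels the difference was -0.61.

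The beta chains went in opposite directions. LAMB1 had the largest laminin difference, -0.79 (-1.24 to -0.30), with medians of 6.64 in MKN45 and 5.24 in MKN45P. It was lower at all 36 of its signal probesets. At 14 of them it was past 2-fold lower, where 7.83% of the signal probesets of measured genes were. Taken between the median levels its difference was -1.40, past 2-fold, while under 7 other settings it was not. LAMB2, the beta chain that can take the place of LAMB1, was higher at 29 of 40 probesets, with medians of 6.14 and 6.58 and a difference of 0.34 (-0.06 to 0.61); a near copy of LAMB2 exists in the genome, so its values are uncertain. LAMB3, the beta partner of LAMA3, was higher at 24 of 28 probesets, with medians of 8.14 and 8.35 and a difference of 0.29 (0.22 to 0.53).

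LAMC1, the gamma chain shared by most laminins, was higher at 33 of 35 probesets. Its medians were 6.40 in MKN45 and 7.16 in MKN45P and its difference was 0.46 (0.25 to 0.78), or 0.76 between the median levels. The signs of LAMA3, LAMA5, LAMB1, LAMB2, LAMB3 and LAMC1 were the same under all 8 other settings. Among these settings, dropping the level filter and asking for at least 10 probesets could not change a value. The 3 chains of one common epithelial trimer, LAMA5, LAMB1 and LAMC1, did not share a direction, nor did LAMA3 and LAMB3. LAMC3 was near the low end (2.68 and 2.44) with -0.24, and LAMA1, LAMA2, LAMA4 and LAMB4 were below the level filter, with differences from -0.04 to 0.01.

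Along LAMA3 the values lay in a weak and a strong stretch in both lines. Over the 48 probesets with the lower numbers the medians were 3.53 in MKN45 and 3.28 in MKN45P, and over the other 47 they were 8.87 and 8.10. Of these 47, 41 had signal and the rest were near the low end in both lines. LAMA3, on the plus strand, is known to give a long transcript and a short one that starts within the gene and lacks the exons before that start. Probesets differ in how well they bind, so the step is not a ratio of amounts, and the place of the internal start on this array was not determined. The difference between the lines was of one sign in both stretches, -0.30 and -0.49.

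**Figure D4:**
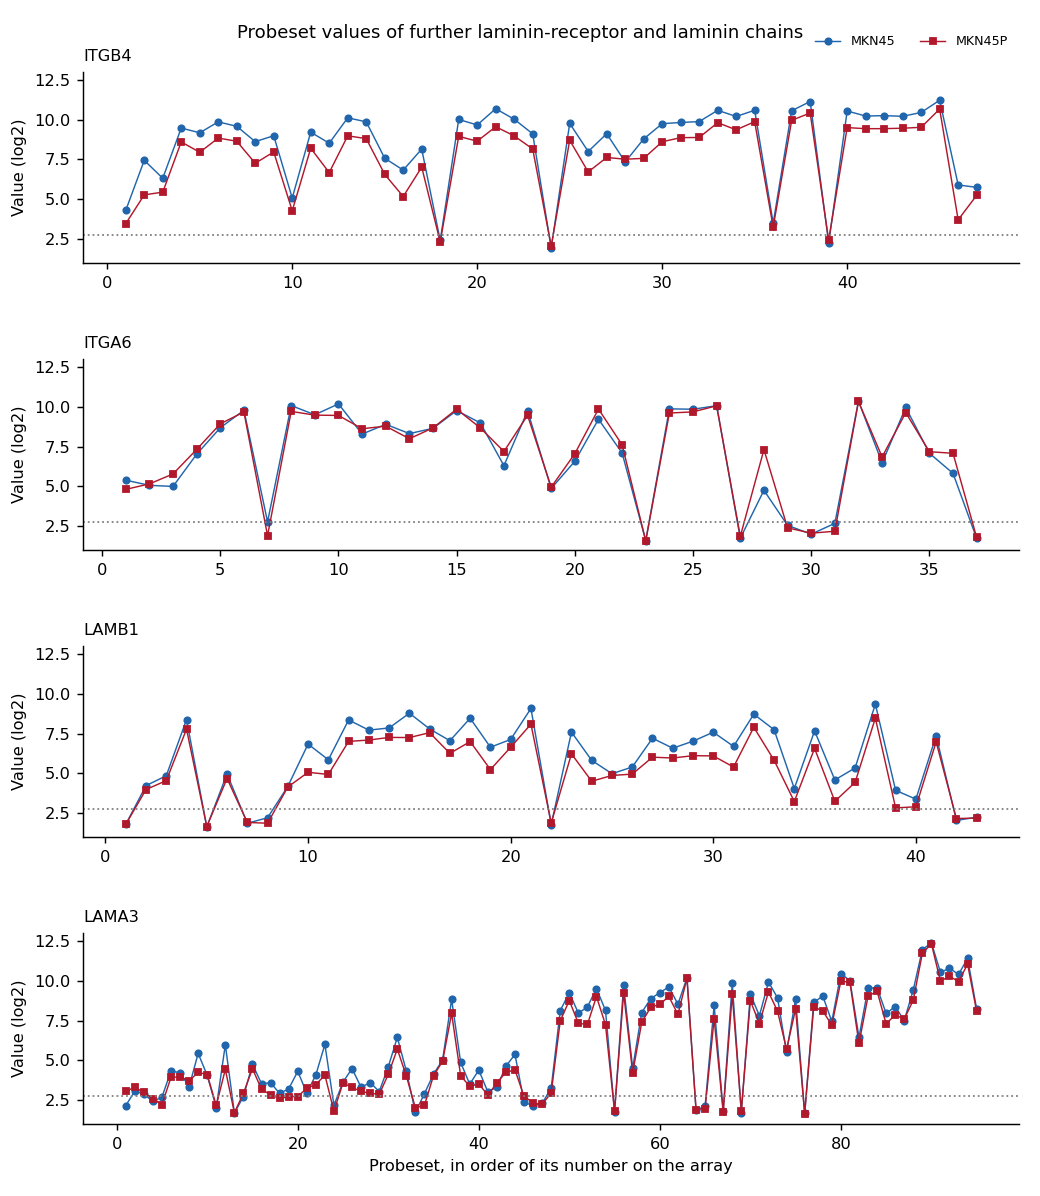
Value of each probeset (log2, vertical axis) in MKN45 (blue circles) and MKN45P (red squares), in order of probeset number, for ITGB4, ITGA6, LAMB1 and LAMA3; the dotted line is 2.77. ITGB4 and LAMB1 lie lower in MKN45P along most of the gene. ITGA6 overlaps over most of its probesets, with the widest gap at the 28th, and LAMA3 has higher values in both lines over most of its last 47 probesets.

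Among the members within 2-fold, single probesets that departed from their gene were few. The 4 members past 2-fold were not examined for this. Among them ITGA5 (1.94) had a probeset at -1.29 and ITGA3 (1.41) had 1 at 3.61. The splicing index, the difference of a probeset minus that of its gene, was examined at 535 signal probesets of 23 members that were within 2-fold. At 3 of them (0.561%) it was 2 or more in size, against 1.33% of 118266 such probesets of the array. They were the ITGA6 probeset described above (index 2.52), probeset 3457102 of ITGA7 (-2.06; 6.30 in MKN45 and 4.10 in MKN45P) and probeset 3913057 of LAMA5 (-2.07; 6.52 and 4.01). The gene difference of ITGA7 (-0.15), from which its index was taken, came from probesets mostly near the low end. Over its 9 signal probesets ITGA7 differed by -0.61, with 8 of them lower in MKN45P. With a smaller index of 1.5 as the limit the count was 6, the others being in ITGAE, ITGAX and LAMA3.

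The leukocyte integrins gave no signal above the low end in most of their probesets. ITGAD (-0.04), ITGAE (-0.08), ITGAM (0.03), ITGAX (-0.06), ITGB2 (-0.06) and ITGB7 (-0.13) passed the filter with levels below 2.77, and ITGAL (-0.04) did not pass it. Under at least 1 other setting ITGAE, ITGAM, ITGB2 and ITGB7 had the opposite sign, ITGAE reaching 0.33 over signal probesets. ITGA9 (-0.11), a partner of ITGB1, passed it as weakly, and ITGA4 (-0.07) did not. No leukocyte marker of the 10 found on the array had a median of at least 2.77 in both lines. NKG7 reached it in MKN45 alone (3.12 and 2.50), and PTPRC, the pan-leukocyte marker, read 1.66 and 1.65. Of 10 markers of gastric cancer epithelium 9 had such medians in both lines, with the epithelial cadherin CDH1 at 10.26 and 10.74. KRT20 was at 1.89 and 1.93. So did 2 of 8 endothelial markers (ENG and CLDN5) and 1 of 9 fibroblast markers (FBLN1) have such medians in both lines. In the epithelial list 2 of 8 measured genes were 2-fold higher in MKN45P, CLDN7 (1.14) and ESRP1 (1.04), against 4.58% of all measured genes. None was 2-fold lower, against 1.20%. EPCAM (0.83), CDH1 (0.55), CLDN4 (0.19) and ELF3 (0.18) were higher by less. The keratins KRT8 (-0.21) and KRT18 (-0.08), from 4 probesets each, and KRT19 (-0.76, from 2 probesets) were lower. Between its median levels, 5.63 and 5.78, KRT18 was higher. Summed over the genes found in each list, the log2 levels in MKN45 and MKN45P were 62.0 and 65.7 for 10 epithelial and 20.2 and 19.7 for 10 leukocyte markers. They were 19.5 and 20.5 for 9 fibroblast and 18.4 and 16.8 for 8 endothelial markers. The lists differ in length and genes near the floor add to a sum, so the sums cannot be compared between lists. Among the fibroblast markers FBLN1 was higher by 1.10 and DCN was at 1.82 and 1.70. The part of these markers in the differences of the chains was not tested.

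Genes that link integrins to the cytoskeleton and activate them stayed within 2-fold. None of 28 measured genes of this list passed it in either direction (background 4.58% and 1.20%), and their median was -0.06. SHARPIN, an inhibitor of integrin activation, came closest at 0.94 (0.49 to 1.18), with medians of 5.97 and 6.93. PARVA, an adaptor of the complex around integrin-linked kinase, was at 0.82. TLN2, a talin that binds beta chain tails, and the tensin TNS4 were both at -0.68, the docking protein gene BCAR1 was at -0.55, and FERMT1, the epithelial kindlin, was at -0.54. TLN1, the main talin, differed by -0.01. Over signal probesets alone PARVA (1.08) and RAP1A (1.10), a small GTPase that activates integrins, were 2-fold higher, and TLN2 (-1.36) was 2-fold lower.

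Partners of the laminin receptors were also within 2-fold. Of 8 measured hemidesmosome and tetraspanin partners the lowest was DST, the gene of a plakin that links ITGB4 to keratin, at -0.69 (-1.29 to -0.12). The highest was COL17A1, a transmembrane collagen of hemidesmosomes, at 0.55 (0.36 to 1.09). PLEC, the other such plakin, was at -0.20, the tetraspanin CD9 at 0.44 and CD151, the tetraspanin that binds ITGA3 and ITGA6, at 0.06. Among 4 measured receptors for laminin that are not integrins the furthest from 0 were SDC4 (-0.35) and DAG1 (-0.10).

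In the basement membrane list 1 of 10 measured genes was 2-fold higher and none 2-fold lower, against 4.58% and 1.20% of all measured genes. NTN4, a netrin that binds laminin gamma chains and loosens laminin networks, had medians of 2.86 in MKN45 and 5.06 in MKN45P. It was higher at 13 of 14 probesets, by a median of 1.68 (0.77 to 2.21). COL4A2, a chain of type IV collagen, was at 0.71, the proteoglycan gene AGRN at 0.68, and NID1, which links laminin to that collagen, at 0.40. The lowest were COL7A1, the collagen of anchoring fibrils, at -0.22 and HSPG2, the perlecan gene, at -0.17, and the list median was 0.12.

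In the list of RGD ligands and latent TGF-beta genes 1 of 9 measured genes was 2-fold higher and 1 was 2-fold lower, against the same 4.58% and 1.20%. MFGE8, a milk fat globule protein whose RGD is bound by ITGAV receptors, was higher at all 16 probesets, with medians of 3.67 and 6.20 and a difference of 2.74 (1.69 to 3.08). NPNT, the nephronectin that is the main ligand of ITGA8, was lower at 16 of 17, with medians of 7.37 and 4.91 and a difference of -1.46 (-2.08 to -0.84). TGFB2 was at -0.84 and FBN2, a fibrillin, at -0.76. FN1, the fibronectin bound by ITGA5, was below the level filter in these cultures (1.81 and 1.82), as was SPP1, and the list median was -0.07.

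**Figure D5:**
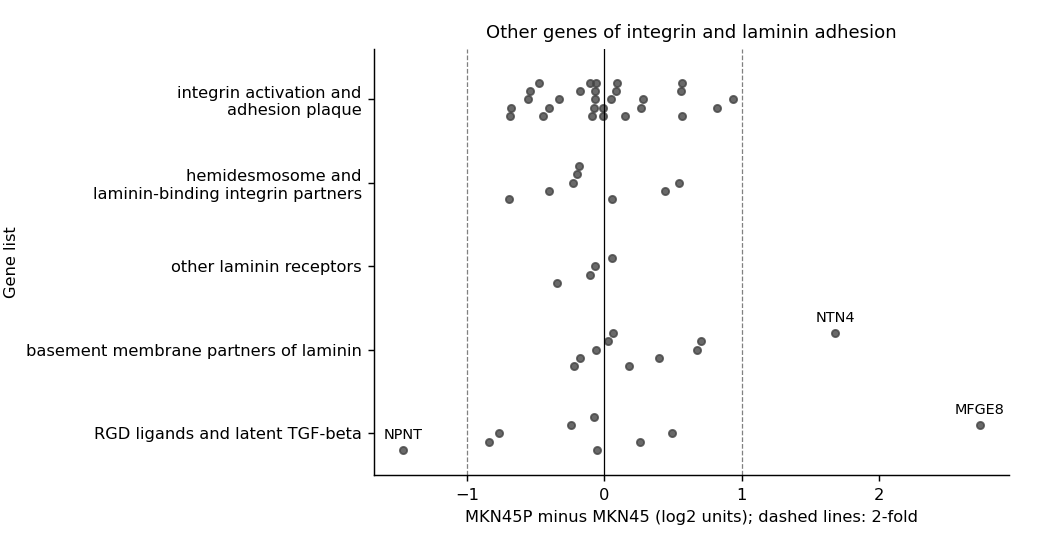
Difference between the arrays (MKN45P minus MKN45, log2 units, horizontal axis) of each measured gene in the 5 lists, 1 point per gene; height within a row has no meaning and dashed lines mark 2-fold. MFGE8 (2.74), NTN4 (1.68) and NPNT (-1.46) are the 3 genes past 2-fold, and those of the plaque list lie between -0.68 and 0.94.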

How the data were processed

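Total RNA of each line was depleted of ribosomal RNA and hybridised as biotin-labelled cDNA, per the labels' protocols. The authors deposited 1 log2 value per array for each of 877986 probesets. That scale was read from the values: their maximum of 13.48 would exceed a 16-bit scanner if it were a natural logarithm. Partek and hg18 are named in the submitters' processing notes. How background, probe summary and normalization were handled is not given in the sources used here. The values were used as deposited, with medians of 1.93 in MKN45 and 1.91 in MKN45P. Depth has no meaning for arrays; the number of arrays limits the precision.

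Gene symbols came from the GEO platform annotation: 286871 probesets had 1 symbol, 3137 had several (5 with a member's symbol) and were left out, and 587978 were unnamed. All 37 member symbols matched the RefSeq genes of GRCh38.p14, which served for names, strands and upstream sequences (the first entry of a gene). A splicing index needed a measured gene within 2-fold and with at least 8 probesets. Members, classes and lists were chosen with earlier results of these data known. Every member is accounted for, and of each list every gene past 2-fold and at least the 2 largest differences are named; further list genes were named for their role after their values were seen. Alternatives were other scalings, summaries, filters and index limits. Python 3.11.15, numpy 2.4.6, pandas 2.3.3, statsmodels 0.14.6 and matplotlib 3.10.9 were used, and the steps were tested on simulated data.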

Additional observations from a re-analysis of the deposited data

How the results depend on the processing

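ITGA3 and ITGA5 were at least 2-fold higher, and ITGA2 and ITGB8 at least 2-fold lower, under all 8 other settings tried. These were quantile normalization, median centring, loess, the mean of probesets, the difference between median levels, no level filter, signal probesets alone and at least 10 probesets. Dropping the level filter or asking for at least 10 probesets only decides which genes are counted. Neither could change the value of a member, and median centring shifts every gene by the same amount. ITGB4 joined the genes 2-fold lower with quantile normalization, loess and signal probesets alone, and LAMB1 with the difference between median levels. The number of members 2-fold lower was therefore 2 or 3, and the median of all measured genes ran from 0.00 without the level filter to 0.09 over signal probesets. Of 214 values of single members under other settings, those that could not change included, 211 lay within 1 SD over the probesets of the gene. The others were ITGB5 at 0.32 and LAMB1 at -1.40 between median levels, and ITGAD at -0.44 over signal probesets; the cause was not tested. An index limit of 1.5 gave 6 member probesets in place of 3.

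In the list of RGD ligands and latent TGF-beta genes, the mean of probesets gave 2 genes 2-fold lower (NPNT and TGFB2), as did signal probesets alone. Between median levels, 1 plaque gene was 2-fold higher (PARVA), 1 plaque gene lower (FERMT1) and 1 other laminin receptor lower (SDC4). Over signal probesets, 2 plaque genes were higher (PARVA and RAP1A), 1 plaque gene was lower (TLN2) and 2 hemidesmosome partners were lower (DST and TSPAN4). The cause was not tested. No paired analysis was possible because each line has 1 array. Low signal is a further limit beside the single array per line: 21 of the 37 members were below 2.77, where differences are compressed.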

Other observations

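Several chains near the low end of the scale had single probesets, or a few, with strong signal in both lines. ITGB3 was below the level filter, yet its probeset 3724547, the first of 21 in number order, read 8.95 in MKN45 and 7.99 in MKN45P. In ITGA2B, probeset 3759180 (the 31st of 33) read 9.57 and 9.10, and 3759152 read 6.82 and 6.29. ITGA11 had its brightest probeset last of 40 in number order (3630835; 8.44 and 7.70), beside 3630834 (8.0035 and 7.42) and 3630750 (7.93 and 7.75), and LAMA1 the 79th of 80 (3797703; 7.68 and 6.15). In ITGAE, the alpha chain of the E-cadherin receptor of intraepithelial lymphocytes, the second of 35 (3741593) read 8.42 and 8.81, and the third (3741594) read 7.0040 and 7.33. These values are given without a gene-level reading, since the remaining probesets of ITGB3, ITGA2B, ITGA11, LAMA1 and ITGAE were mostly near the low end.

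Probesets with more than 1 symbol were left out of the gene values. Of 5 that named a member, 4 were shared by ITGB3 and C17orf57, and the 1 of these with signal (3724610) read 2.85 in MKN45 and 4.23 in MKN45P. The probeset shared by ITGA1 and PELO (2809130) read 4.11 and 4.59.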
